A study of Homo sapiens with 12 samples.

Results

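The genes described here are 39 genes of cholesterol and fatty acid synthesis, taken by symbol from the 60314 gene entries of the expression tables of C4-2B and 22RV1 cells. They comprise 4 regulators (SREBF1, SREBF2, SCAP and INSIG1), 19 genes of the sterol arm from acetoacetyl-CoA to cholesterol and its transport, and 16 genes of the fatty acid arm from citrate to long, desaturated and activated acyl chains. Each symbol was found in both tables. Both arms draw on cytosolic acetyl-CoA and are switched on by the sterol regulatory element-binding proteins, which SCAP escorts from the endoplasmic reticulum to the Golgi when sterols are low, while INSIG1 holds SCAP back when sterols are high. The protein made from SREBF2 acts mostly on sterol genes and those made from SREBF1 mostly on fatty acid genes. In prostate cancer cells androgen receptor signalling is known to raise both arms, and FASN is a well-known product of such cells.

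RNA was sequenced from 4 groups of 3 libraries each, which the series text calls biological triplicates. C4-2B is a castration-resistant derivative of the androgen-sensitive line LNCaP, and 22RV1 was derived from a relapsed human prostate cancer xenograft, so each line stands for a single tumour. All cells were labelled wild type and were kept for 48 h in glutamine-free RPMI medium with fetal bovine serum and L-glutamine at 2 mM. The labels name no further agent for the control groups. The treated groups received an agent labelled 56 mer at 50 nM, whose sequence and nature the sources used here do not state. The question put to the data was how far the genes of each arm stood at different levels in the controls of the lines, and how far they differed with 56-mer in each.

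The values are normalized read counts, scaled within each line by the authors. The recovered reads numbered between 8847368 and 13740386 a library. Genes with a value above 0 numbered 20779 to 22686 in the C4-2B libraries and 28342 to 31010 in those of 22RV1. The levels set across lines below rest on libraries that differ in this way. The luminal prostate markers KLK3, KLK2, TMPRSS2, FOLH1, KRT8 and KRT18 were present in every library, from 353 (TMPRSS2 in 22RV1) to 9891 (KRT8 in 22RV1). The basal markers KRT5 and TP63 were at 0 throughout, while KRT14 ran from 0 to 10.7 in C4-2B and 0 to 6.25 in 22RV1. Some markers of other cell types were read. The fibroblast marker COL1A1 ran from 264 to 415 in C4-2B and 242 to 354 in 22RV1. The fibroblast markers COL1A2 and DCN were at 0 in C4-2B and at most 32.7 and 5.30 in 22RV1. In C4-2B the endothelial marker VWF ran from 84.7 to 231 and the leukocyte marker CD68 from 73.7 to 222. Both lay lower in 22RV1. The leukocyte marker CD3E was at 0 in every library, and PTPRC was at most 1.07 in C4-2B and 1.77 in 22RV1. The endothelial marker PECAM1 was at 0 in C4-2B and at most 8.20 in 22RV1. Among markers of lipid-synthesizing cell types, ADIPOQ was at 0 in every library, whereas ALB was read at 307 to 497 in 22RV1 and at 0 in C4-2B. The replicate numbers follow the order of the records, and p-values measure the spread between these libraries. In bulk RNA a smaller number of expressing cells and less RNA per cell cannot be told apart.

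The 56-mer 1 library of each line stood apart among the members too. Across the 36 members tested in C4-2B, its log2 deviation from the line's mean had a Spearman rho of −0.71 with transcript length, against −0.14 to 0.40 in the other C4-2B libraries. Across the 39 members in 22RV1, the deviation of 56-mer 1 had a rho of −0.60 with GC content, against −0.30 to 0.36 in the other 22RV1 libraries. C4-2B 56-mer 2 also followed GC content, with a rho of 0.60, and 56-mer 3 had 0.31. Over 16183 tested genes of C4-2B the rho with GC content was 0.21 in both 56-mer 2 and 56-mer 3. It was −0.13 to −0.013 in the other C4-2B libraries, so for GC content 56-mer 2 and 3 stood apart. These correlations run across genes of shared libraries and are given as a description. In C4-2B, members ran from 0.71 lower on the log2 scale (−0.71, FASN) to 0.50 higher in 56-mer 1 than in the mean of 56-mer 2 and 3. Values without 56-mer 1 and after a correction of each library for GC content and transcript length are given beside some of the results they move. Without C4-2B 56-mer 1 only 56-mer 2 and 3 are set against the controls of that line.

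**Figure D1:**
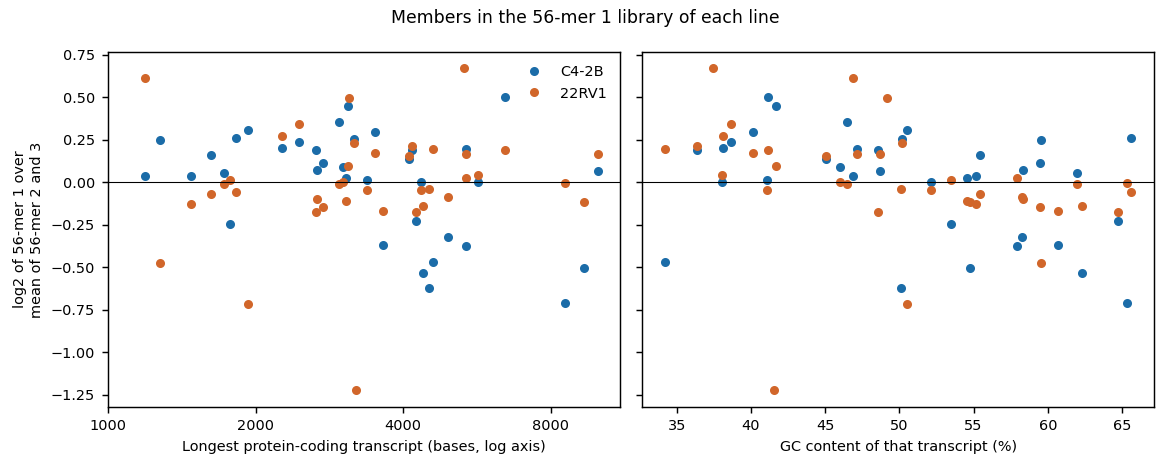
Each point is a member in C4-2B (blue, 36 genes) or 22RV1 (orange, 39 genes). The vertical axis is the log2 ratio of the 56-mer 1 library to the mean of 56-mer 2 and 3, and the horizontal axes are the length (log axis) and the GC content of the longest protein-coding transcript. In C4-2B FASN, FADS1 and SCAP are the lowest points and ELOVL6 the highest (rho −0.41 with length), and in 22RV1 the points slope down with GC content (rho −0.62).

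The members share promoter letters that the choice by symbol did not use. RefSeq promoter windows (GRCh38.p14, from 250 bases before to 50 after the start) were held for 35 of the 39 members, and ACAT2, FDFT1, SQLE and FASN had no entry. The CCAAT box (its reverse complement ATTGG counted as well), which the factor NF-Y binds beside many sterol regulatory elements, occurred in the windows of 27 of the 35 members (77.1%). It occurred in 39.7% of the 27305 genes with a window and in 42.7% of the 12541 such genes tested in either line. The sterol arm held it in 14 of 16 genes, the fatty acid arm in 11 of 15 and the regulators in 2 of 4. The GC box GGGCGG (either strand), bound by Sp1, was in 33 of 35 windows (94.3%) against 73.1% of tested genes. The E-box CACGTG was in 5 of 35 (14.3%) against 12.1%. The core of the sterol regulatory element, TCACNCCAC on either strand, was found in 2 of 35 members (5.71%), SREBF2 and ACSL1, against 1.46% of tested genes. A gene with several windows had more chances of a match, and a missing match says only that these exact letters are not in this window.

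Stretches of 4 of these promoters are shown because they carry the shared element in 2 regulators and in HMGCS1 and FDPS, sterol genes whose C4-2B libraries with 56-mer lay below and above control. They are written 5′ to 3′ on the strand of the gene, and capitals mark the CCAAT box on either strand and the sterol element core. The SREBF2 stretch lies at chr22:41832954-41833053 (plus strand), 151 to 52 bases before the start, that of INSIG1 at chr7:155297663-155297762 (plus strand), that of HMGCS1 at chr5:43313508-43313607 (minus strand), and that of FDPS at chr1:155308649-155308748 (plus strand), all in GRCh38.p14. In GENCODE 29, 3.7% of the exon bases of SREBF2 are shared with the noncoding antisense gene SREBF2-AS1.
SREBF2: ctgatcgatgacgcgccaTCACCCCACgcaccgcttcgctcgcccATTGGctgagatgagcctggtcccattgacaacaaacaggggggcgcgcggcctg
INSIG1: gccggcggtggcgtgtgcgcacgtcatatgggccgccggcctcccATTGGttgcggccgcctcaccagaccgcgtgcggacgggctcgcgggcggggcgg
HMGCS1: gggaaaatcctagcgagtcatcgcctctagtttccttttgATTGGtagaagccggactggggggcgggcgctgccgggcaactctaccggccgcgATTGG
FDPS: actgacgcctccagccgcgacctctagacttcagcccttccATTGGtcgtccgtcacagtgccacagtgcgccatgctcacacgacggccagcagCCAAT
SREBF2 carries its sterol element core upstream of an ATTGG. HMGCS1 and FDPS each carry 2 CCAAT boxes in the stretch, where SREBF2 and INSIG1 carry 1. Each stretch was picked to hold the most of the marked elements upstream of the start, in a single window of its gene. These counts follow from that choice and do not describe the whole promoters. The FDPS window holds a further ATTGG at −51, outside the stretch.

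In control cells the genes took a larger share of the reads in C4-2B than in 22RV1, in each arm and without overlap of the control libraries. Together the 39 genes took 1.02% to 1.12% of the reads of the C4-2B control libraries and 0.343% to 0.357% of those of 22RV1. The fatty acid arm took 0.683% to 0.770% in C4-2B and 0.202% to 0.205% in 22RV1, the sterol arm 0.155% to 0.162% and 0.0862% to 0.0916%, and the regulators 0.177% to 0.190% and 0.0546% to 0.0610%. Since the tables were normalized separately, levels are set across lines here as reads per 1000000 recovered reads (RPM) and were not tested. In these units 25 members were higher in every C4-2B control library than in every 22RV1 control library, 12 were higher in 22RV1, and the 2 whose libraries overlapped were SQLE and ELOVL1. Over all 12 libraries, 56-mer included, 33 of the 39 kept such a gap. The share of all genes with such a gap is not given here, so these counts do not set the members apart from other genes. Over the 36 members tested in both lines the median log2 ratio of C4-2B to 22RV1 was 0.80, against −0.29 over the 15527 genes tested in both.

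A difference of at least 4-fold without overlap set 8 members higher in C4-2B (5.56% of 21647 genes were) and 4 higher in 22RV1 (26.4% were). FADS2, the desaturase that opens the synthesis of long polyunsaturated fatty acids, differed most, with 2281 ± 226 RPM (SD, n = 3) in C4-2B and 24.5 ± 1.96 in 22RV1, 93.1-fold. INSIG1, the sterol-dependent brake on SCAP, stood at 333 ± 19.5 against 28.5 ± 4.39 RPM, 11.7-fold. SREBF1 stood at 1038 ± 58.7 against 89.4 ± 7.95, 11.6-fold. Its partner SREBF2 was nearly level, at 352 ± 16.2 against 309 ± 17.2, and SCAP was lower in C4-2B at 123 ± 12.1 against 154 ± 6.19. For SREBF2 and SCAP the lines overlapped once the 56-mer libraries were counted. The other genes at least 4-fold higher in C4-2B were SCD, the main stearoyl-CoA desaturase (6.61-fold), TM7SF2, a sterol reductase (4.95-fold), EBP, the sterol isomerase (4.65-fold), FASN, the fatty acid synthase (4.59-fold), and ACSL1, which activates fatty acids to acyl-CoA (4.35-fold).

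The 4 genes at least 4-fold higher in 22RV1 were near the floor in C4-2B or low there. SCD5, a second stearoyl-CoA desaturase, had 8.63 ± 0.914 RPM in 22RV1 and 0.191 ± 0.0983 in C4-2B, 45.1-fold, a ratio that rests on 7 reads in all 3 C4-2B controls. ELOVL6, which lengthens palmitate to stearate, stood at 94.8 ± 4.54 in 22RV1 and 4.26 ± 0.928 in C4-2B, 22.3-fold. ACSL4, an acyl-CoA synthetase with a preference for arachidonate, stood at 18.8 ± 4.64 and 0.886 ± 0.708, 21.2-fold, on 33 C4-2B reads. CYP51A1, the lanosterol demethylase, stood at 5.25 ± 1.08 and 0.675 ± 0.872, 7.77-fold, on 22 C4-2B reads. Of the exon bases of CYP51A1, 83.2% are shared with other annotated genes, chiefly AC000120.2, so its level is uncertain. The early fatty acid enzymes differed little, with ACLY at 341 ± 6.88 in C4-2B and 370 ± 7.96 in 22RV1, and ACACA at 239 ± 6.29 and 270 ± 5.55.

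**Figure D2:**
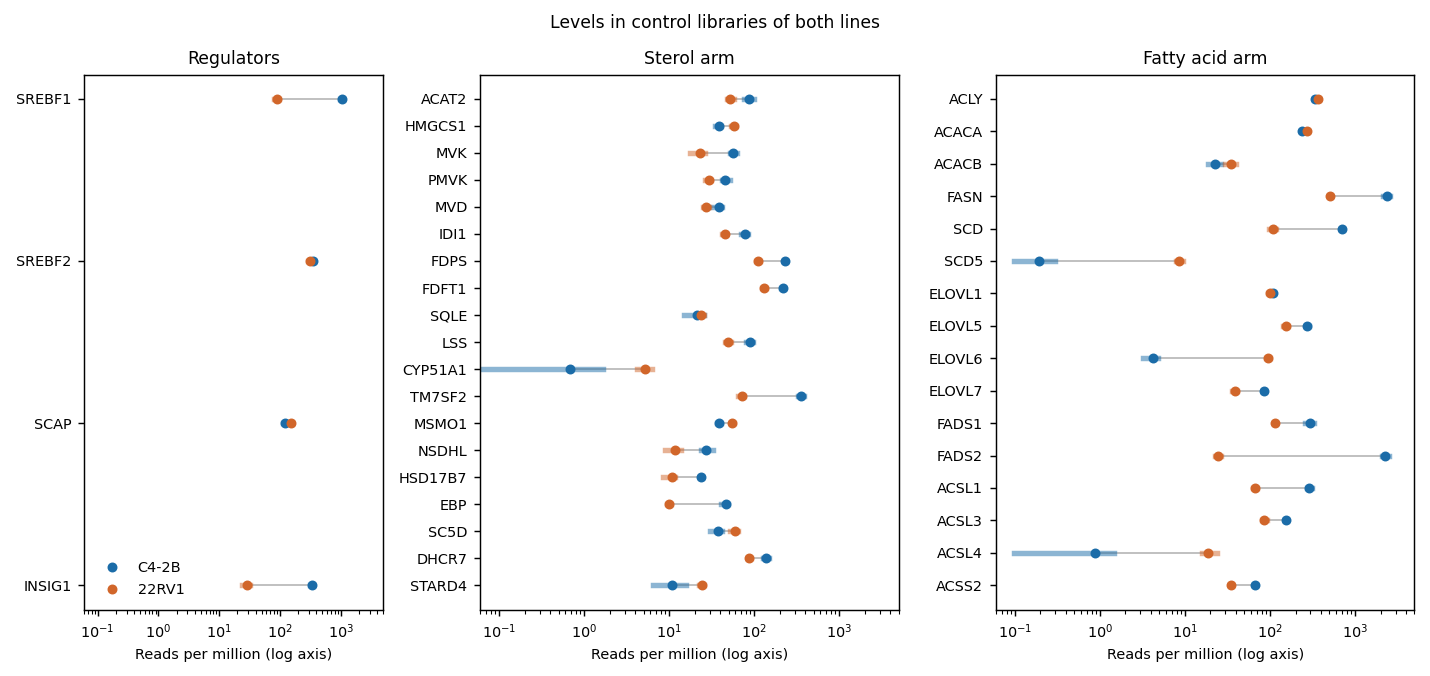
Mean reads per 1000000 recovered reads in the 3 control libraries of C4-2B (blue) and 22RV1 (orange) on a log axis, by arm, with bars from the lowest to the highest library. The C4-2B bar of CYP51A1 runs off the axis because its lowest library is at 0. FADS2, INSIG1 and SREBF1 lie far to the right in C4-2B, and SCD5, ELOVL6 and ACSL4 in 22RV1, while ACLY, ACACA and SREBF2 lie close together.

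Within sets of related enzymes the leading gene was the same in both lines for the SCD, carboxylase and acyl-CoA synthetase sets and differed for the FADS pair and the elongases, on the transcript length used here. On normalized reads per kilobase of the longest protein-coding transcript, in controls, FADS2 made up 90.6% ± 0.272 (SD, n = 3) of the FADS1 and FADS2 sum in C4-2B and 21.2% ± 1.63 in 22RV1. FADS1, which takes the later desaturation step, made up the rest, so the order of the pair was opposite. FADS2 ranked highest of the FADS pair in all 6 C4-2B libraries and FADS1 in all 6 22RV1 libraries.

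Among the elongases the share of ELOVL6 was 0.373% ± 0.0767 in C4-2B and 10.9% ± 0.0933 in 22RV1. ELOVL5, which extends polyunsaturated chains, led in C4-2B with 50.3% ± 1.18, ahead of ELOVL1, which makes saturated very long chains, with 37.8% ± 1.05, and ELOVL7 with 11.5% ± 0.582. In 22RV1 ELOVL1 led with 45.2% ± 0.696, ahead of ELOVL5 with 37.0% ± 0.910, and ELOVL7 had 6.97% ± 0.772. That order of ELOVL1 and ELOVL5 in 22RV1 was not kept with exon-union lengths, at 39.0% ± 0.674 and 39.8% ± 0.986.

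Of the acyl-CoA synthetases ACSL1 made up 71.9% ± 1.88 in C4-2B, ACSL3, which serves lipid droplets, 28.0% ± 1.94 and ACSL4 0.169% ± 0.132. In 22RV1 ACSL1 had 46.3% ± 1.29, ACSL3 43.6% ± 0.478 and ACSL4 10.1% ± 1.60, and with exon-union lengths ACSL3 came before ACSL1 (47.0% and 41.5%). SCD made up 99.95% ± 0.0248 of the SCD and SCD5 sum in C4-2B and 87.7% ± 1.80 in 22RV1. ACACA, the cytosolic acetyl-CoA carboxylase, held 90.9% ± 1.61 of the carboxylase pair in C4-2B and 88.0% ± 1.36 in 22RV1, the rest being the mitochondrial form ACACB. The carboxylase shares of the lines overlapped over the 6 libraries of each, 89.3% to 93.9% and 86.7% to 90.3%.

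**Figure D3:**
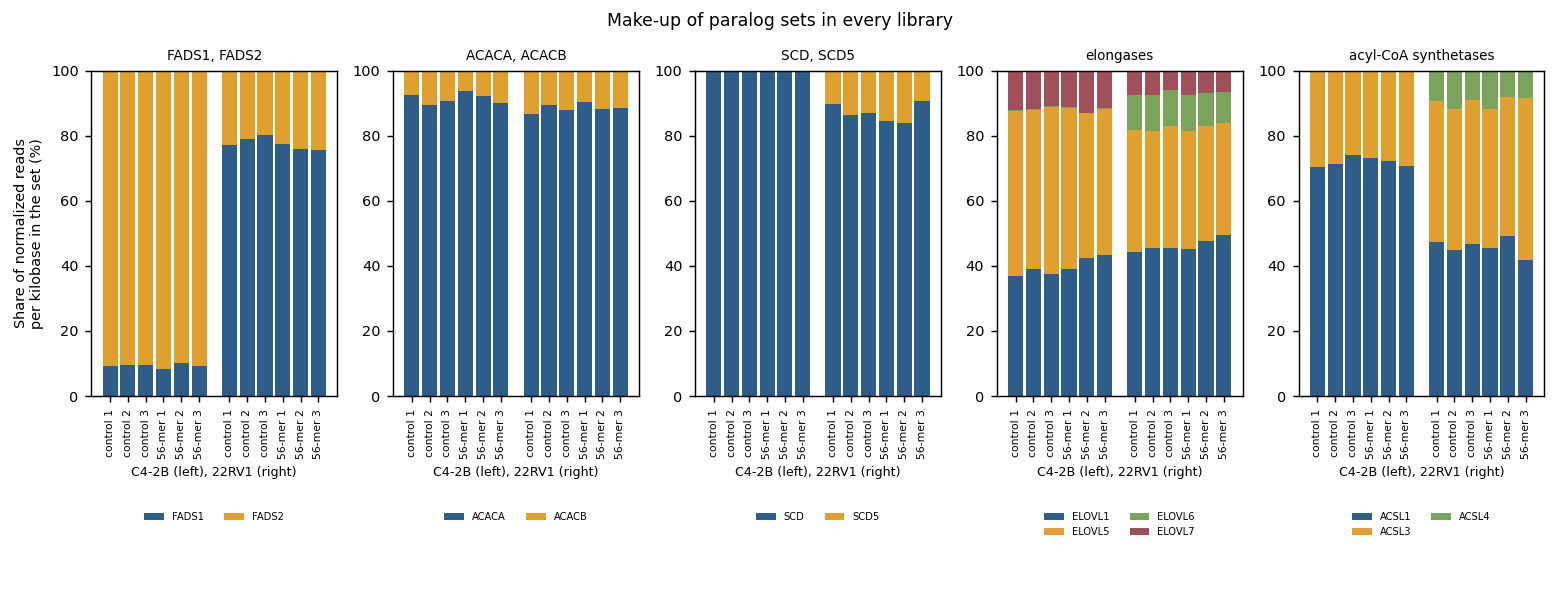
Stacked bars give the share of each gene in its paralog set, in percent of the summed normalized reads per kilobase, in each of the 12 libraries (C4-2B left, 22RV1 right, in each the 3 controls before the 3 56-mer libraries). FADS2 fills most of the FADS bars in C4-2B and FADS1 in 22RV1, and ELOVL6, ACSL4 and SCD5 are visible only in 22RV1.

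With 56-mer no member passed an adjusted p of 0.05 in C4-2B, where 36 members were tested and 0.066% of 16657 genes passed (limma, Benjamini-Hochberg over all tested genes). The same held in 22RV1, where all 39 were tested and 0.00975% of 20517 genes passed. CYP51A1, SCD5 and ACSL4 were under the filter on low values in C4-2B. At an unadjusted p under 0.05 there were 8 members in C4-2B, 4 higher with 56-mer (4.89% of all tested genes) and 4 lower (4.03%). The 4 higher genes were all of the sterol arm, and of the 4 lower genes 3 were of the fatty acid arm and 1 of the sterol arm. In 22RV1 there were 0 at an unadjusted p under 0.05, against 3.91% of all tested genes in either direction. edgeR called 0 members in either line (0.0% of all tested genes in C4-2B and 0.00975% in 22RV1), with 7 at an unadjusted p under 0.05 in C4-2B (8.4% of all genes) and 0 in 22RV1 (3.72%). DESeq2 called 1 member in C4-2B, ACLY, but gave an adjusted p for only 2448 genes there, 20 of the members among them, of which it called 42 (1.72%), so this count cannot be set against the 16657 genes of limma. In 22RV1 DESeq2 called 0 members (0.0146% of all genes). At an unadjusted p under 0.05 it had 7 members in C4-2B (7.91% of all genes) and 1 in 22RV1 (3.23%). Without C4-2B 56-mer 1 limma called 3 members there, EBP and FASN higher and ELOVL5 lower, where 0.486% of all genes (81) were called. At an unadjusted p under 0.05 there were then 11 of 36 members, against 11.4% of all genes. Without 22RV1 56-mer 1 it called 0 members in 22RV1 (0.0244% of all genes), with 3 of 39 at an unadjusted p under 0.05 (4.98% of all genes).

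In C4-2B the median changes of the sterol and fatty acid arms lay on opposite sides of 0. Of the 18 tested sterol genes 12 had a higher mean with 56-mer and the median log2 change was 0.13, and of the 14 tested fatty acid genes 2 did and the median was −0.11. Over all 16657 tested genes 48.3% were higher and the median was −0.011. In 22RV1 4 of 19 sterol genes were higher (median −0.082), 9 of 16 fatty acid genes (median 0.0062) and 0 of 4 regulators, beside 49.4% of all genes with a median of −0.0026. The medians of the fatty acid arm in 22RV1 differed in sign between settings, as the closing part gives. Without C4-2B 56-mer 1 the C4-2B medians were 0.099 for the sterol and −0.090 for the fatty acid arm, with 13 of 18 and 4 of 14 genes higher. After the correction for GC content and length they were 0.087 with 15 of 18 and −0.086 with 5 of 14 genes higher. Without 56-mer 2 there were 5 of 14 fatty acid genes higher, and without control 2 the fatty acid median was −0.061 and the sterol median 0.088. The sterol medians were 0.21 without C4-2B control 1 and, in 22RV1, −0.049 without control 3.

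**Figure D4:**
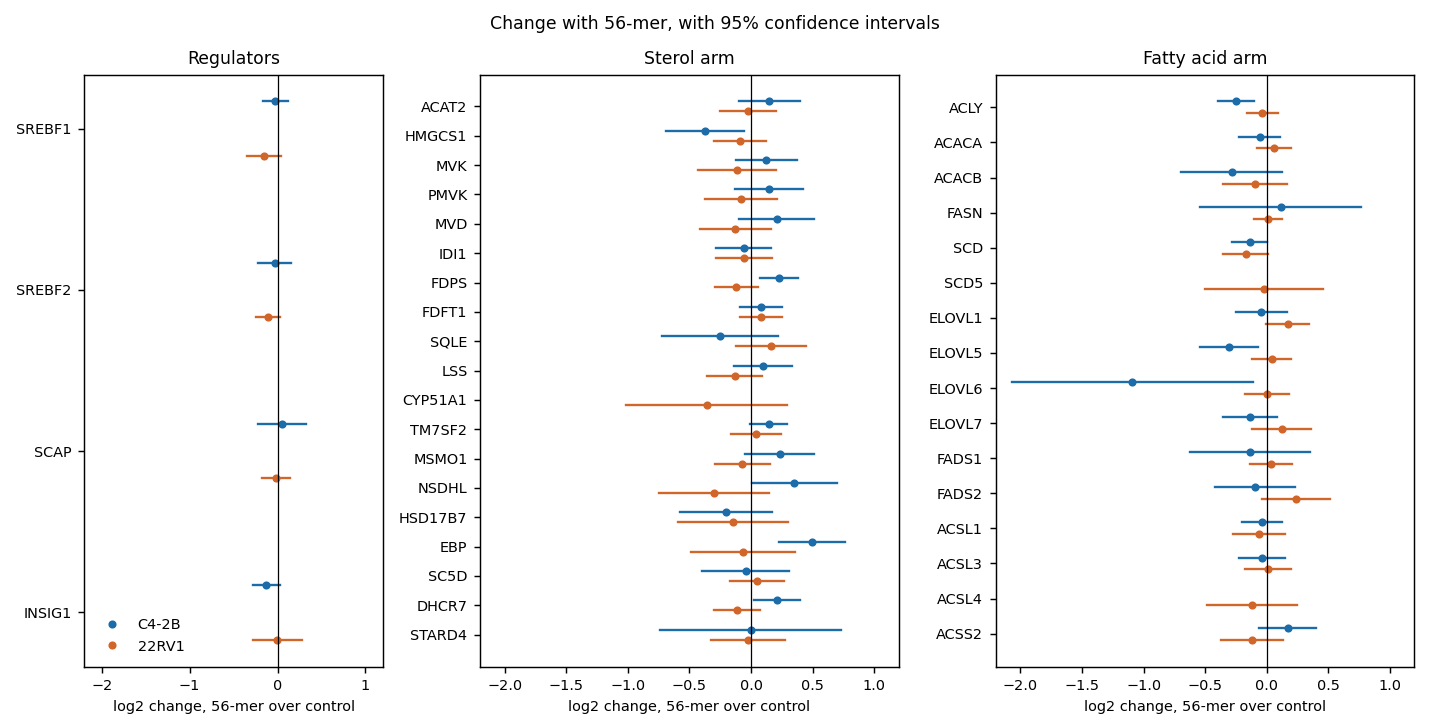
Points give the log2 change with 56-mer on the log2(value + 1) scale and lines its 95% confidence interval, in C4-2B (blue) and 22RV1 (orange). Members under the filter in C4-2B have no blue point. In C4-2B most sterol points lie right of 0 and most fatty acid points left of it, with intervals that mostly include 0, and the 22RV1 points crowd around 0.

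The regulators showed no separation between groups in either line. SREBF1 read 11695, 12909 and 11703 in the C4-2B controls and 10681, 12047 and 13001 with 56-mer (log2 change −0.026 ± 0.068 SE, limma adjusted p = 0.947). In 22RV1 it read 1087, 970 and 1153 against 889, 900 and 1106 (−0.15 ± 0.098, limma adjusted p = 0.9996). The groups overlapped in both lines, and the 95% interval was −0.17 to 0.11 in C4-2B and −0.35 to 0.044 in 22RV1. SREBF2 read 3919, 4236 and 4159 in C4-2B controls and 3368, 4351 and 4395 with 56-mer, and 3660, 3536 and 3923 against 3489, 3186 and 3675 in 22RV1. In C4-2B the lowest of its 6 values was that of 56-mer 1. SCAP read 1302, 1426 and 1559 against 1157, 1713 and 1631 in C4-2B, again lowest in 56-mer 1, and 1903, 1766 and 1863 against 1707, 1805 and 1952 in 22RV1.

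INSIG1, itself a sterol-regulated gene, read 3941, 3656 and 4059 in C4-2B controls and 3701, 3469 and 3499 with 56-mer (−0.13 ± 0.075, limma adjusted p = 0.647). All but the first of the 56-mer values lay below every control. In 22RV1 INSIG1 read 385, 284 and 356 against 339, 325 and 353, and the 56-mer values lay inside the control range.

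In the sterol arm EBP, which moves a double bond in the sterol ring, had the smallest p of the 36 members tested in C4-2B. It read 584, 560 and 464 in controls and 672, 776 and 816 with 56-mer, so that every treated library lay above every control. The means were 536 ± 63.2 and 755 ± 74.7 (SD, n = 3), a log2 change of 0.49 ± 0.13 SE (limma adjusted p = 0.265). Without C4-2B 56-mer 1 the change was 0.58 and the adjusted p 0.0301 in limma. After the correction for GC content and length it was 0.43, with a limma adjusted p of 0.295. In 22RV1, where EBP was low, it read 112, 118 and 125 in controls and 113, 119 and 106 with 56-mer, and the groups overlapped (−0.068 ± 0.21).

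FDPS makes farnesyl diphosphate, the branch point of the sterol and isoprenoid paths. Its values in C4-2B were 2686, 2707 and 2740 in controls and 3233, 3102 and 3204 with 56-mer, 17.3% higher on average and without overlap (0.23 ± 0.076, limma adjusted p = 0.397). In 22RV1 the order was the other way, with 1264, 1389 and 1317 in controls and 1146, 1280 and 1226 with 56-mer, and the groups overlapped. Reads of FDPS may not all be its own, since 46.5% of its transcript 31-mers occur in other annotated genes, chiefly RUSC1-AS1 and FDPSP5.

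DHCR7, which reduces the direct precursor to cholesterol, read 1639, 1737 and 1466 in C4-2B controls and 1931, 1845 and 1825 with 56-mer (0.21 ± 0.091, limma adjusted p = 0.510). In 22RV1 it read 1009, 1036 and 1082 against 921, 997 and 970 (−0.11 ± 0.092). Neither pair of groups overlapped, with 56-mer above control in C4-2B and below it in 22RV1. NSDHL, of the demethylation complex that trims the sterol ring, read 383, 275 and 284 against 458, 395 and 345 in C4-2B (0.35 ± 0.17, limma adjusted p = 0.552), and its groups overlapped. In 22RV1 NSDHL read 146, 108 and 166 against 80.3, 139 and 125, with the lowest value in 56-mer 1.

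HMGCS1, which condenses acetyl-CoA with acetoacetyl-CoA near the head of the path, was the sterol gene with an unadjusted p under 0.05 in the other direction. It read 463, 401 and 472 in C4-2B controls and 393, 342 and 298 with 56-mer, with no overlap (−0.37 ± 0.15, limma adjusted p = 0.496). In 22RV1 it read 637, 721 and 735 against 708, 634 and 625, which overlapped. CYP51A1 read 0, 19.4 and 4.24 in C4-2B controls and 3.92, 5.72 and 6.82 with 56-mer, too few reads for a comparison. In 22RV1 CYP51A1 read 50.0, 62.9 and 75.7 against 27.7, 77.9 and 51.3 (−0.36 ± 0.33), and the lowest and the highest of the 6 were both in 56-mer libraries. Without 56-mer 1 its log2 change was 0.028.

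The other 13 sterol genes lay between −0.25 (SQLE, the epoxidase) and 0.23 (MSMO1, a sterol methyl oxidase) in C4-2B. MSMO1 read 452, 431 and 470 in the C4-2B controls and 581, 492 and 518 with 56-mer, without overlap, at a limma adjusted p of 0.644. In 22RV1 the same genes ran from −0.15 (HSD17B7) to 0.16 (SQLE). HSD17B7 and ACAT2 share 69.5% and 68.4% of their 31-mers with other annotated genes, so their values are uncertain.

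In the fatty acid arm ACLY, which cleaves citrate to cytosolic acetyl-CoA, was lower with 56-mer in C4-2B with close replicates. It read 4061, 4035 and 3850 in C4-2B controls and 3353, 3333 and 3357 with 56-mer, 15.9% lower on average and without overlap (−0.25 ± 0.072, limma adjusted p = 0.322). DESeq2 on the recovered reads gave a log2 change of −0.25 with an adjusted p of 0.0488, adjusted over the 2448 genes for which it gave one, of which 42 passed. In 22RV1 ACLY read 4398, 4365 and 4526 against 4229, 4480 and 4262, which overlapped (−0.035 ± 0.062).

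ELOVL5 read 3166, 3072 and 3327 in C4-2B controls and 3179, 2158 and 2495 with 56-mer. The 56-mer 1 library lay within the control range and the other 2 lay below it (−0.31 ± 0.11, limma adjusted p = 0.456). Without 56-mer 1 the change was −0.46 with an adjusted p of 0.000389 (limma), and without 56-mer 2 it was −0.18 with 0.752. After the correction for GC content and length it was −0.23, with a limma adjusted p of 0.475. In 22RV1 ELOVL5 read 1874, 1692 and 1972 against 1981, 1854 and 1848, which overlapped. ELOVL6 was low in C4-2B, at 37.5, 57.0 and 54.2 in controls and 29.4, 13.4 and 28.3 with 56-mer, without overlap (−1.09 ± 0.47, limma adjusted p = 0.515). In 22RV1 ELOVL6 read 1139, 1082 and 1185 against 1243, 1120 and 1056, a log2 change of 0.0033 ± 0.090.

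ELOVL1 had the smallest p of the members in 22RV1. It read 1171, 1132 and 1259 in controls there and 1294, 1325 and 1391 with 56-mer, without overlap (0.17 ± 0.086, limma adjusted p = 0.9996). In C4-2B it read 1211, 1287 and 1286 against 1319, 1089 and 1274, which overlapped. FADS2 read 318, 291 and 271 in 22RV1 controls and 319, 365 and 353 with 56-mer, a narrow gap (0.24 ± 0.14). In C4-2B FADS2 read 24680, 29618 and 25490 against 20938, 26177 and 27920, lowest in 56-mer 1 (−0.095 ± 0.13). Without 56-mer 1 its log2 change in C4-2B was 0.028.

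SCD read 8585, 8275 and 8014 in C4-2B controls and 8247, 6941 and 7450 with 56-mer (−0.14 ± 0.068, limma adjusted p = 0.562). In 22RV1 it read 1426, 1266 and 1171 against 1230, 1043 and 1152 (−0.17 ± 0.091). The groups overlapped in both lines. SCD5 read 94.0, 116 and 100.3 in 22RV1 controls and 130, 115 and 69.8 with 56-mer. In C4-2B SCD5 read 2.14, 1.14 and 3.39 against 8.82, 8.59 and 16.6, a gap within a handful of reads. ACSL4 read 12.8, 1.14 and 16.9 against 7.84, 4.77 and 0 in C4-2B, and 196, 290 and 190 against 277, 178 and 171 in 22RV1. Both sets of ACSL4 values overlapped.

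FASN showed how far the C4-2B 56-mer libraries differed from each other. It read 25439, 29920 and 27052 in controls and 21367, 33662 and 36351 with 56-mer, so the lowest and the highest of the 6 were both treated (0.11 ± 0.24, limma adjusted p = 0.934). Without 56-mer 1 the log2 change was 0.35 with an adjusted p of 0.00384 (limma), without 56-mer 2 it was 0.024 and without 56-mer 3 −0.031. Its longest protein-coding transcript has 8565 bases and a GC content of 65.3%, and after the correction for both the log2 change was 0.093 (limma adjusted p = 0.911). In 22RV1 FASN read 6109, 6174 and 6153 against 6179, 6150 and 6223, a log2 change of 0.0091 ± 0.057 with a 95% interval of −0.11 to 0.12. The remaining fatty acid genes ran from −0.29 (ACACB) to 0.17 (ACSS2, which makes acetyl-CoA from acetate) in C4-2B, and from −0.12 (ACSS2) to 0.12 (ELOVL7) in 22RV1. ACSS2 read 409, 418 and 419 in 22RV1 controls and 363, 406 and 378 with 56-mer, without overlap.

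**Figure D5:**
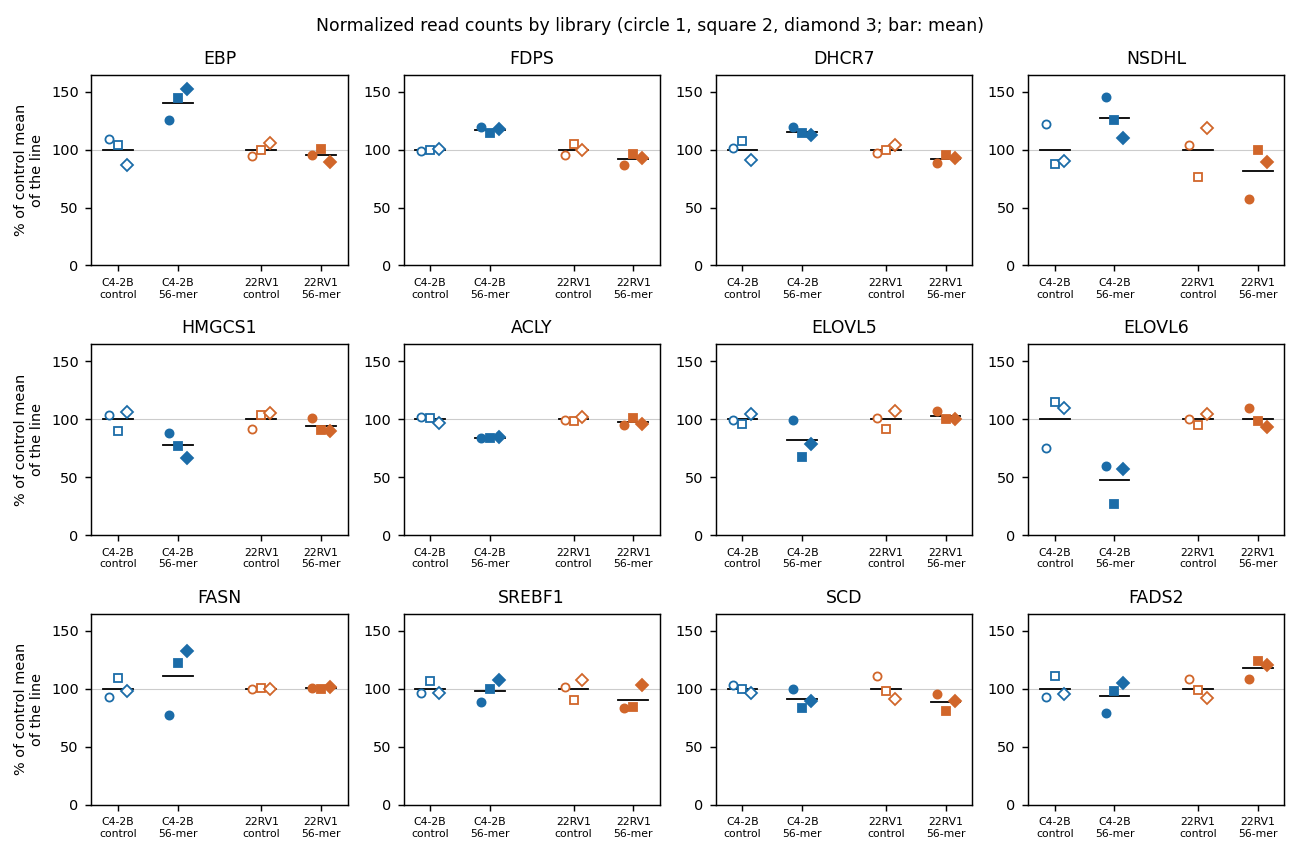
Normalized read counts of 12 members in every library, as a percentage of the control mean of the line, with controls as open and 56-mer libraries as filled symbols and short bars for the means. EBP, FDPS, DHCR7, HMGCS1, ACLY and ELOVL6 have no overlap between groups in C4-2B, and FASN shows 56-mer 1 below and 56-mer 2 and 3 above the controls there.

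Groups that did not overlap were counted as well. In C4-2B 7 of the 36 tested members did not overlap, FDPS, MSMO1, EBP and DHCR7 above control and HMGCS1, ACLY and ELOVL6 below, against 14.7% of all tested genes. In 22RV1 4 of 39 did not overlap, ELOVL1 and FADS2 above and DHCR7 and ACSS2 below, against 9.03%. With 3 libraries against 3, an exact permutation test of a single gene cannot go below p = 0.1.

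The difference of the changes between the lines was tested on the 36 members that passed the filter in both, and 0 passed an adjusted p of 0.05, as did 0.0% of 15527 genes. At an unadjusted p under 0.05 there were 4 members with a higher change in 22RV1 than in C4-2B (4.15% of all tested genes) and 4 with a lower change (3.75%). The 4 higher ones were fatty acid genes, ELOVL6 (1.09 ± 0.34), ELOVL5 (0.35 ± 0.15), FADS2 (0.33 ± 0.14) and ACLY (0.21 ± 0.085). This fit takes 1 variance per gene for both lines, which makes the SE too small for some genes of unlike level. For ELOVL6 the SE lay below that of C4-2B alone (0.47). For FADS2 it was about that of each line alone (0.13 in C4-2B and 0.14 in 22RV1). The places of ELOVL6 and FADS2 among the 4 rest on this pooling. Without C4-2B 56-mer 1 the C4-2B change of FADS2 went from −0.095 to 0.028, and that of ELOVL5 from −0.31 to −0.46. The 4 lower ones were sterol genes, NSDHL (−0.65 ± 0.31), EBP (−0.56 ± 0.22), FDPS (−0.35 ± 0.10) and DHCR7 (−0.33 ± 0.12). Their limma adjusted p-values ran from 0.534 (FDPS and ELOVL6) to 0.629 (NSDHL). The median difference, 22RV1 minus C4-2B, was −0.20 in the sterol arm, with 5 of 18 genes above 0, and 0.18 in the fatty acid arm, with 10 of 14 above 0. Over all genes it was 0.013, with 51.8% above 0. Leaving out 56-mer 1 of both lines gave medians of −0.16 and 0.073. For SREBF1 the difference was −0.13 with a 95% interval of −0.39 to 0.14, and for FASN −0.11 with −0.64 to 0.43.

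Beside the members, 76 further genes of SREBP processing, isoprenoid synthesis, sterol transport and fatty acid handling were listed, of which 75 were in the tables. In C4-2B 65 were tested and 0 passed the adjusted threshold of limma (0.066% of all tested genes did). At an unadjusted p under 0.05 there were 2 higher (4.89% of all tested genes) and 1 lower (4.03%). SLC25A1, the carrier that exports citrate from mitochondria ahead of ACLY, read 3945, 4130 and 3721 in controls and 4321, 4449 and 4336 with 56-mer (0.15 ± 0.072, limma adjusted p = 0.543). INSIG2, a paralog of INSIG1, read 255, 241 and 188 against 168, 156 and 182. In both genes the C4-2B groups did not overlap, as held for 14.7% of all tested genes.

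In 22RV1 72 of these further genes were tested and 0 passed the adjusted threshold (0.00975% of all tested genes did). At an unadjusted p under 0.05 there were 2 higher (OXSM and GGPS1) and 2 lower (NPC2 and NR1H3). Of all tested genes 3.91% were so in either direction. GGPS1, which makes geranylgeranyl diphosphate, read 74.0, 83.2 and 124 against 128, 118 and 135. OXSM, of mitochondrial fatty acid synthesis, read 232, 237 and 191 against 330, 230 and 293. NPC2, which hands cholesterol out of lysosomes, read 250, 174 and 254 against 143, 182 and 182, and NR1H3, a liver X receptor, 261, 187 and 224 against 144, 191 and 177. All 4 pairs of groups overlapped. The median log2 change of the further genes was 0.014 in C4-2B and 0.022 in 22RV1.

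The authors' deposited tables of comparisons list all 39 members in each line. There, 0 members of the authors' deposited tables had an adjusted p under 0.05 in either line, and 6 in C4-2B and 1 in 22RV1 had an unadjusted p under 0.05. The share of all genes in those deposited tables is not given here, so these counts do not set the members apart.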

How the data were processed

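The values are signal that the authors deposited as 1 normalized table per line. Divided by the smallest step of its library, 100% of the values came out whole (within 0.01), so the authors' values are read counts divided by 1 size factor a library, from 0.732 to 1.18. DESeq is named in the submitters' processing notes without a version, while aligner, build, annotation and strand setting are not given in the sources used. The authors' deposited comparison tables give log2 fold changes, p-values and adjusted p-values, and were used only for the counts credited to them. Columns left unused numbered 0.

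Each line was fitted alone with limma 3.58.1 (R 4.3.3) on log2(value + 1), with trend and robust moderation, two-sided, over genes of at least 10 in at least 3 of 6 libraries. The pseudocount makes log2 changes of low genes too small. Adjustment was by Benjamini-Hochberg over all tested genes, with a threshold of 0.05. The difference between lines was 1 fit of 12 libraries. SE is that of limma. edgeR 4.0.16 and DESeq2 1.42.0 were run on recovered reads. The fit was tested on simulated data. Lengths and GC content are of the longest protein-coding transcript in GENCODE 29, matched by symbol for 96.18% of tested genes.

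The members and lists were chosen with earlier results of these data known. Values in every library are given for the regulators, the members with an unadjusted p under 0.05, the 3 smallest p-values per line and arm and for the difference, and those under the filter. FASN, MSMO1 and ACSS2 were added after their values were seen. Alternatives were other normalizations, filters, pseudocounts, variance models and tools, a correction for GC content and length, and leaving out each library. Some genes of the lists are not reported here by name.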

Additional observations from a re-analysis of the deposited data

How the results depend on the processing

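No paired analysis was possible because nothing in the labels ties a control to a treated library, and replicate numbers are accession order. The count of 0 members called held in C4-2B under all alternatives except DESeq2 (1, ACLY) and the omission of 56-mer 1 (3, EBP, FASN and ELOVL5), so leaving out 1 library gave 0 to 3. It was 0 under every alternative in 22RV1 and for the difference. The median log2 change of the sterol arm in C4-2B (0.1333) was 0.0870 once corrected for GC content and length and 0.0917 under equal totals, and ranged from 0.0879 to 0.2121 with 1 library left out, the highest without control 1. That of the fatty acid arm in C4-2B (−0.1143) was −0.1615 after quantile normalization, −0.1559 under scaling to equal totals and −0.0855 once corrected for GC content and length, and −0.1318 to −0.0609 with 1 library left out. The sterol median in 22RV1 (−0.0820) ran from −0.1046 to −0.0494. The fatty acid median in 22RV1 (0.0062) was −0.0106 with equal totals and −0.0230 after the correction, and −0.0124 to 0.0486 with 1 library left out. Without 56-mer 1 of both lines, an alternative chosen after seeing the data, the fatty acid difference was 0.0728 instead of 0.1809. The causes of these shifts were not tested. Among the named members, log2 changes that no setting called turned sign 8 times over 5 genes in C4-2B and 20 times over 7 genes in 22RV1. The widest turns in 22RV1 were CYP51A1 from −0.360 to 0.0275 without 56-mer 1, SCD5 from −0.0205 to 0.246 without 56-mer 3 and ACSL4 from −0.118 to 0.0776 without control 2. The 3 libraries a group and the spread among 56-mer libraries limit what could be seen.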
